A study of Mus musculus with 12 samples.

Results

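The comparison set mouse samples titled WT with a 1 before GH against samples titled WT with a 0 before GH, where WT is read as the wild-type form of the growth hormone (GH) receptor and 1GH and 0GH are the names used here. It rests on 6 of the 12 arrays of the series, chosen by their titles: 3 arrays of WT 1GH and 3 of WT 0GH, with the replicate letters b, c and d in each group, paired by letter. The other 6 arrays carry the same letters and GH numbers with a receptor form called NLS, the usual abbreviation of a nuclear localization signal, and stand beside the wild-type values only to show where these differ. All titles also carry a 10 that the labels do not explain. The treatment entry, human growth hormone at 100 ng/ml, is the same for both GH numbers, and the samples are described as a time course. The numbers 0 and 1 have no unit in the labels, so the groups are not called hours, or treated and untreated. Cell type, strain, the way the receptor was introduced and whether the letters are separate cultures are not stated by the labels. All p-values therefore measure only the spread between these samples, which may be technical.

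Growth hormone binds a cell-surface receptor of the cytokine receptor class, which signals through the tyrosine kinase JAK2 that is bound to its cytoplasmic tail. JAK2 phosphorylates STAT5A and STAT5B, which enter the nucleus and bind a palindromic DNA element near target genes, while MAP kinase and PI3 kinase pathways are activated in parallel. Genes known to answer to this pathway include the feedback inhibitors Cish and the SOCS genes, the kinase gene Pim1, immediate early genes such as Fos, cyclins, survival genes of the BCL2 family and, in liver, Igf1. Part of the receptor is also found in the nucleus, which is the subject named in the series title.

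On each array the sample, labelled in Cy3, was hybridised together with an embryonic reference RNA in Cy5, so a level is a log2 ratio of sample over reference. Here each array was centred on the median of its tested features, and a difference is the centred value at 1GH minus that at 0GH. Which channel stands above the fraction line is unstated. With the sign used here, 36 of 41 genes typical of embryo tissue lay on the reference side of the mean of the wild-type arrays (87.8%, median -4.58). The opposite reading would turn every sign below. The wild-type arrays held a value for 16951 to 19362 of 23040 spots. Spots of a gene symbol were averaged, and 10760 features with a value on all 12 arrays were tested, 8707 of them named genes. Precision is limited by the number of arrays. On WT 1GH c the sample dye was incorporated at 19.2 bases per dye molecule, against 12.8 to 16 on the other 11 arrays. That array also had the largest number of wild-type values beyond 8 log2 units (381, against 83 to 233 on the other 5) and a value on 19.5% of the spots named for buffer, against 7.85% to 14.7%. The part of the dye in the results was not tested, beyond the fit with it as a covariate.

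The element bound by STAT5 shows where the pathway meets its targets, and Cish carries it at its start. The promoter table of RefSeq (build GRCm38.p6) holds 300 bases around each annotated start. The motif searched was TTCNNNGAA, which is its own reverse complement and so counts on both strands. It was found in 8.30% of 32851 promoters, and 0.457% held it more than once. Of the GH and STAT5 target genes described below, 26 have an entry and 5 hold the motif: Bcl6, Cish, Igfals, Serpina3g and Socs3. Cish alone among these 5 was tested here. Its stretch from 60 bases before to 30 bases after the annotated start, on the plus strand at chr9:107296599-107296688, is shown because Cish is the classical STAT5 target, with both motif copies in capitals.
Cish: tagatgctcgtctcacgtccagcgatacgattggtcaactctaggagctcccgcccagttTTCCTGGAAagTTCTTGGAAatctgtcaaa
The copies begin at bases 1 and 12 after the start. A match is a description of letters and not of binding. Over all tested genes with an entry, the 576 with the motif had a median difference of 0.06 on the log2 scale, and the 6253 without it 0.03. The letter medians (b, c, d) were 0.08, 0.04 and 0.12 with the motif, against 0.04, 0.01 and 0.12 without it. Genes with the motif were higher at 1GH in all letters in 15.1% of cases and lower in 10.1%, close to the 13.8% and 9.83% of the genes without it.

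No gene passed the test between 1GH and 0GH. At an adjusted p under 0.05, with Benjamini-Hochberg adjustment over all features, limma called 0 of 10760 features (0%), and the lowest adjusted p was 0.997. An unadjusted p under 0.05 was found for 401 features, of which 178 were higher at 1GH (1.65%) and 223 lower (2.07%). Genes are therefore given below as values, and no direction is a call. The median size of a difference was 0.45 on the log2 scale, and the median standard error (SE) of the fit was 0.67. An exact sign-flip test over 3 pairs cannot go below a two-sided p of 0.25, so none is given for single genes.

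The letters did not resemble each other. Across the tested features, which are not independent replicates, the differences of letters b and c had a Pearson r of 0.02 and a Spearman rho of 0.01. For b and d these were -0.02 and -0.01, and for c and d -0.02 and -0.07. Between 46.4% and 50.8% of features had the same sign in a pair of letters. Among the NLS arrays, letters c and d gave 0.18 for both, with 58.3% of features of the same sign. The other NLS pairs were like the wild-type pairs, with an r of -0.02 (b and c) and -0.03 (b and d) and 46.6% and 46.2% of the same sign. The differences of letters b, c and d had SDs of 2.10, 1.74 and 1.46 but interquartile ranges of 1.25, 1.16 and 1.38, so the order of the letters depends on the measure. Among all features 1489 were higher at 1GH in all 3 letters (13.8%) and 1068 lower (9.93%). A difference above 1 in all letters was found for 87 features (0.809%) and one below -1 for 135 (1.25%). The 3 values at 1GH all lay above the 3 at 0GH for 317 features (2.95%) and all below for 291 (2.7%). Centring matters for these splits, since without it the median difference shifts by -0.27 and 3550 features lie above 0 in place of 5644. Only differences relative to the median of all features are meant by higher and lower here.

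**Figure D1:**
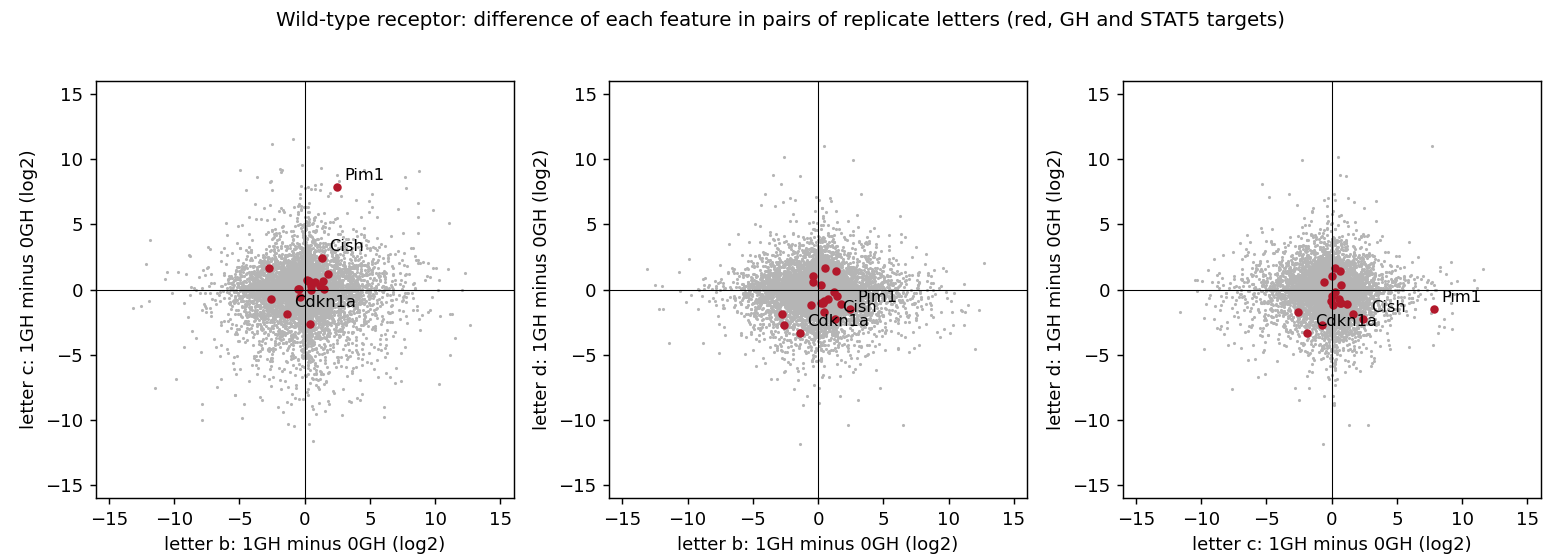
Each grey point is 1 of the 10760 tested features, placed by its 1GH minus 0GH difference (log2) with the wild-type receptor in a pair of replicate letters; red points are the 19 tested GH and STAT5 target genes. The clouds show no slope (Pearson r 0.02, -0.02 and -0.02), and Pim1 and Cish lie above 0 in letters b and c and below 0 in d, while Cdkn1a lies below 0 in all letters.

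The gene of the receptor itself did not separate the groups. Ghr had centred levels of -0.65, -0.70 and 0.62 on the WT 0GH arrays b, c and d, and of 0.13, -1.10 and -0.36 on the 1GH arrays. The values overlap, and the difference was -0.20 (SE 0.81); it was 0.19 without letter d. A spot of the mouse gene need not report a receptor that was introduced from a construct, so this does not check the WT label. Jak2 had 5 wild-type values, with 3.21 and 4.36 on the 0GH arrays c and d and 0.69, 4.42 and 2.66 on the 1GH arrays. Stat5a had no value on any wild-type array.

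Among the GH and STAT5 target genes, Cish and Pim1 had higher values at 1GH in letters b and c and lower values in d. Of 36 genes in this list 19 were tested. The share of all features with this order of signs was not counted, so the order only describes the single genes named. Of the 19, 11 lay above 0 and 8 below (over all features 52.5% lay above 0), 0 passed and 0 had an unadjusted p under 0.05. In letter b 13 of the 19 were above 0, in c 14 and in d 5. Over all features 52.9%, 50.4% and 54.9% lay above 0 in b, c and d. The medians were 0.44, 0.26 and -0.99, beside 0.05, 0.01 and 0.12 over all features. The fitted median was 0.21, and -0.06 without centring, where 8 of the 19 lay above 0. Without letter d the median was 0.46, and without b it was -0.08. In the NLS arrays 9 of the 19 lay above 0, with a median of -0.02.

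Cish, a SOCS-box protein that binds activated cytokine receptors and dampens STAT5 signalling, had levels of 0.62, 0.08 and 2.95 at 0GH and of 1.92, 2.51 and 0.69 at 1GH (letters b, c and d). Its highest and its lowest level thus both belong to the 0GH arrays, and the groups overlap. The differences were 1.30, 2.44 and -2.25, with a fitted value of 0.49 (SE 0.80, limma adjusted p = 0.997). Without letter c it was -0.48. With the sample dye as a covariate it was 0.01. On the 6 NLS arrays Cish stayed between 1.75 and 2.54, against 0.08 to 2.95 on the wild-type arrays. Nufip2 was the named gene most like Cish over all 12 arrays (Pearson r 0.92), followed by Tcea1 (0.85), Kazn (0.84), Fbxo33 (0.83) and Polr3e (0.81). These r are descriptions over 12 arrays, and arrays of the same letter are listed with the same red dye incorporation. Nufip2 had -0.65, 0.16 and 3.47 at 0GH and 3.01, 3.01 and 1.22 at 1GH. It was picked for the highest r among all named genes tested, so its likeness to Cish follows from that choice.

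Pim1, a serine/threonine kinase gene that cytokines induce through STAT5, had -1.03, -7.25 and -0.29 at 0GH and 1.43, 0.61 and -1.81 at 1GH. The value of -7.25 on WT 0GH c sets most of its difference, which was 2.46, 7.86 and -1.52 in b, c and d, with a fitted 2.93 (SE 2.06). Id1, an inhibitor of basic helix-loop-helix factors, followed the same order with 1.76, 1.20 and -1.10, from levels of -0.99, 0.39 and 1.55 to 0.78, 1.59 and 0.45. Bcl2l1, which encodes the survival protein BCL-XL, had differences of 0.24, 0.68 and -1.02, and Bcl2 had 0.36, 0.68 and -0.99. Socs2, the SOCS gene best known for limiting GH action, differed by -0.53, 0.08 and -1.17. Cish, Pim1, Id1, Bcl2l1 and Bcl2 thus all lie above 0 in letters b and c and below 0 in d, which Socs2 does not.

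In all letters 3 genes of the list were higher (15.8%, beside 13.8% of all features) and 2 were lower (10.5%, beside 9.93%), shares near those of all features. Fos, an immediate early transcription factor gene, had -1.66, -1.37 and -4.44 at 0GH and -0.26, -0.75 and -3.01 at 1GH, with a difference of 1.15 (SE 0.76). All letters were higher at 1GH, but the groups overlap because letter d was low at both GH numbers. Lif, a cytokine gene, went from -0.01, 0.32 and -0.77 to 0.51, 0.58 and 0.85 without overlap, a difference of 0.80 (SE 0.51). Mcl1, a survival gene of the BCL2 family, went from 0.67, 0.58 and 0.72 to 0.88, 1.30 and 1.06, also without overlap, a difference of 0.42 (SE 0.37). In Lif and Mcl1 every 1GH array thus lay above every 0GH array, and Lif had the same difference of 0.80 in the NLS arrays.

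Cdkn1a, which encodes the cell cycle inhibitor p21, was the gene of the list with the largest size on the lower side. Its levels were -0.32, 0.35 and 0.75 at 0GH and -1.69, -1.50 and -2.61 at 1GH. All 1GH arrays lay below all 0GH arrays, and the difference was below -1 in every letter. The fitted value was -2.19 (SE 0.995, limma unadjusted p = 0.0593). In the NLS arrays it was 0.10, with 2.72, -1.10 and -1.31 in letters b, c and d, so letters c and d were lower there too. Cd24a, a surface glycoprotein gene, was also lower in all letters (-2.59, -0.70 and -2.71), with overlap. Ccnd2, the cyclin D2 gene, and Junb, an AP-1 gene, had mixed signs, with fitted differences of -0.98 (SE 0.97) and -1.28 (SE 0.71).

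**Figure D2:**
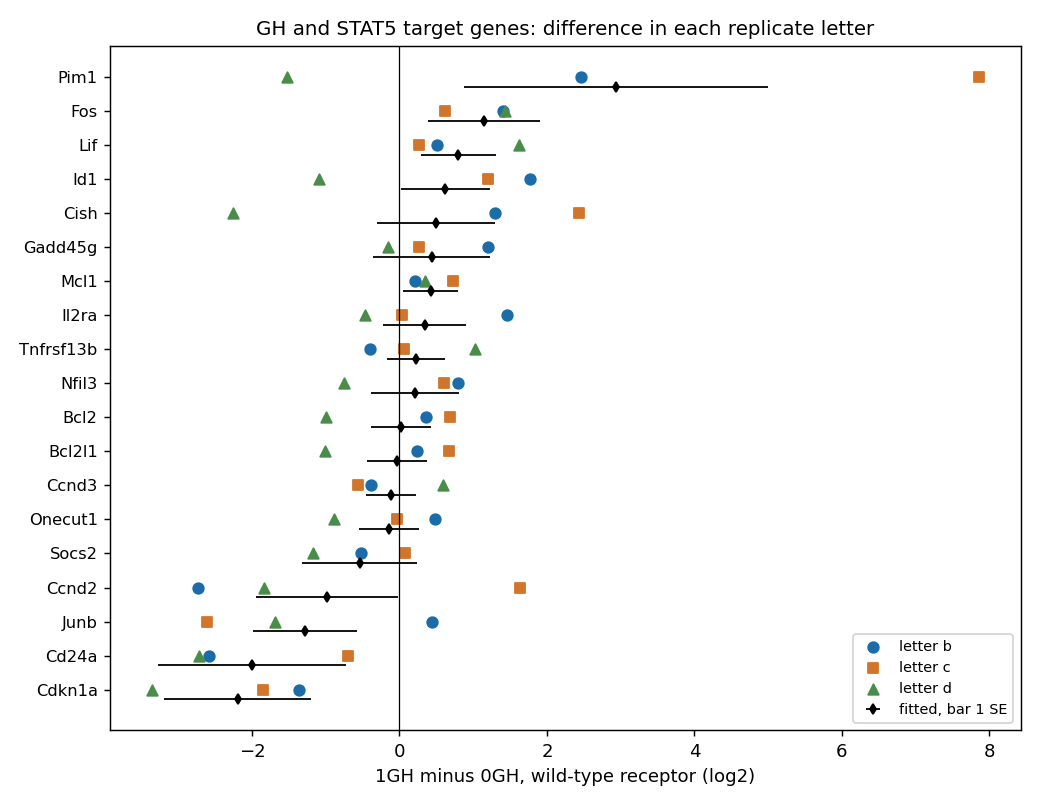
Differences 1GH minus 0GH (log2) of the 19 tested GH and STAT5 target genes with the wild-type receptor, by replicate letter, with the fitted value and a bar of 1 SE in black. Letter d lies left of 0 for 14 of the 19 genes, while 13 lie right of 0 in b and 14 in c. Over all features 52.9%, 50.4% and 54.9% lie right of 0 in b, c and d. Fos, Lif and Mcl1 lie right of 0 and Cdkn1a and Cd24a left of 0 in all letters.

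Other targets had values on part of the arrays and were left out of the test. Igf1, the growth factor gene that GH drives in liver, had all 6 wild-type values, from -0.87, -7.02 and -3.47 at 0GH to -1.35, -5.90 and -2.42 at 1GH. Letter c is the lowest in both groups, and the differences were -0.48, 1.12 and 1.05. Myc, a growth-promoting transcription factor gene, had differences of 2.39 in c and -1.46 in d. Socs3, a SOCS gene of the gp130 cytokines, had -2.63 in b and 1.42 in c. Socs1 had values of 2.71 and 1.56 on the 1GH arrays b and c and -0.51 on 0GH d, which leaves no pair. Egr1, an immediate early gene, had a pair only in letter b, with a difference of 0.19.

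Of 37 receptor, JAK, STAT and adaptor genes 17 were tested, with 8 above 0, 9 below and a median of -0.13, which was 0.10 with quantile normalization. Among them 2 had an unadjusted p under 0.05, both higher at 1GH, where 1.65% of all features were higher and 2.07% lower at that p. Irs2, an adaptor that links receptors to PI3 kinase, had -5.50, -3.89 and -1.92 at 0GH and -4.03, -0.61 and -0.99 at 1GH, and every letter was higher at 1GH, with overlap. Its difference was 1.89 (SE 0.63), and 0.93 in the NLS arrays. Ptpn6, the phosphatase SHP-1 that shuts off cytokine receptors in blood cells, had 1.22, 0.99 and 2.91 against 3.16, 4.45 and 2.84. Letters b and c were higher by 1.94 and 3.46, while letter d differed by -0.07, for a fitted 1.77 (SE 0.75). Without letter c the fitted values were 1.20 for Irs2 and 0.93 for Ptpn6. Mybbp1a, Birc5 and Fxyd5, genes of a Myb-binding nucleolar protein, of survivin and of an ion pump regulator, had fitted differences of -0.22, -0.17 and -0.12, each within its SE (0.365, 1.005 and 0.906).

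Immediate early genes, which answer quickly to many stimuli, were higher in all letters more often than all features, but none had a small p. Of 25 tested, 15 lay above 0 and 10 below (60%, beside 52.5% of all features). In all letters 6 were higher (24%, beside 13.8% of all features) and 1 was lower (4%, beside 9.93%). An unadjusted p under 0.05 in limma was found for 0 of them. The medians were 0.06, 0.09 and 0.36 in b, c and d, beside 0.05, 0.01 and 0.12 over all features, and without centring 11 of the 25 lay above 0. Nr4a3, an orphan nuclear receptor gene, had 3.25, -1.27 and 2.17 at 0GH and 4.10, 1.32 and 3.12 at 1GH, higher in each letter with a difference of 1.46 (SE 0.87). Dusp4, a phosphatase of MAP kinases, went from -0.58, 0.42 and 0.06 to 0.54, 0.45 and 0.45, without overlap, by 0.51 (SE 0.32). Zfp36, which encodes an mRNA decay factor, had 0.53, 5.04 and -0.02, where the 5.04 rests on -7.15 on WT 0GH c. Spry4, an inhibitor of receptor signalling, had -0.68, -6.00 and -0.32, where the -6.00 rests on -7.22 on WT 1GH c.

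The named genes with the smallest p among those of one sign in all letters are given next, ranked by p and not by size. This choice uses the same test, so the following values describe and support nothing. For the 12 on the higher side the fitted differences ran from 1.81 to 5.09 and the unadjusted p from 0.000194 to 0.00564, and for the 12 on the lower side the sizes ran from 1.69 to 7.67 and the p from 0.000509 to 0.00416. The 1GH and 0GH arrays did not overlap in 7 of the 12 higher and 11 of the 12 lower genes. Over all features the shares were 2.95% and 2.7%, but a choice by p and sign on the same arrays favours such a separation. In none of the 13 alternative fits did any of the 24 pass the threshold or turn its sign. Since they were chosen for one sign in all letters, leaving out a letter or changing the block could not turn it.

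Gbp2 and Gbp2b, genes of interferon-induced GTPases, stood on the higher side. Gbp2 had -4.60, -4.86 and -5.72 at 0GH and 0.00, -2.17 and -1.61 at 1GH, a difference of 3.80 (SE 0.75). Gbp2b had -2.88, -5.05 and -3.90 against -0.59, -2.62 and -1.15, a difference of 2.49 (SE 0.45). In both genes all 1GH arrays lay above all 0GH arrays. The 2 genes are close paralogs whose probes may share target, so they are not independent, and with the NLS receptor they had 0.93 and 0.56. By letter (b, c, d) the NLS values were 3.15, 0.88 and -1.24 for Gbp2 and 1.74, 0.18 and -0.23 for Gbp2b. The limma test of the difference between receptors gave an unadjusted p of 0.0276 for Gbp2 and 0.0172 for Gbp2b, and an adjusted p of 0.950 for each. It uses the same wild-type arrays by which both genes were chosen, so its unadjusted p is no separate evidence.

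The other interferon response genes did not all follow. Of 31 tested, Gbp2 included, 17 lay above 0 and 14 below. In all letters 6 were higher (19.4%, beside 13.8% of all features) and 2 lower (6.45%, beside 9.93%). The median was 0.11, or -0.15 without centring. Rsad2, which encodes the antiviral protein viperin, went from -0.55, -1.37 and -1.78 to -0.16, -0.39 and 0.23 without overlap, by 1.13 (SE 0.38), or 0.69 without letter d. Tapbp, the tapasin gene of antigen loading, went from -0.22, 0.00 and -0.02 to 0.61, 0.72 and 0.86, by 0.81 (SE 0.32). Both had NLS values near 0 (0.00 and -0.13). Mx1, Oas1a and Ifi47, genes often used as markers of an interferon response, had differences of 0.14, 0.12 and 0.11, each below its SE, and Ifitm3 and Cxcl10 had -2.19 (SE 0.98) and -1.08 (SE 0.63).

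Blm, Pms2, Hnrnph1 and Rtca, genes of DNA repair or RNA processing, were also among the 12 on the higher side. Of 37 DNA replication and repair genes tested, Blm included, 15 lay above 0 (40.5%, beside 52.5% of all features) and 22 below. Of 55 splicing factor genes tested, Hnrnph1 included, 30 lay above 0 (54.5%) and 25 below. U2af1, another splicing gene, is among the 12 on the lower side. Blm, the helicase of Bloom syndrome, had -1.13, -2.83 and -1.77 at 0GH and 1.08, 0.84 and 2.03 at 1GH, a difference of 3.23 (SE 0.68) without overlap. It was higher in the NLS arrays too, by 2.29 (SE 0.68, unadjusted p = 0.0101). Pms2, a mismatch repair gene, went from 2.70, 0.72 and 2.996 to 5.11, 2.58 and 4.16, higher in each letter but with overlap, by 1.81 (SE 0.43). Hnrnph1, a splicing regulator, went from -2.83, -0.29 and -1.26 to 0.69, 1.40 and 0.26, by 2.24 (SE 0.43). Of these 12, Rtca, an RNA 3'-phosphate cyclase gene, had the largest fitted value, 5.09 (SE 1.31). By letter it had 8.67, 5.53 and 1.05, and without b the fitted value was 3.29. Zfp41 (2.80, SE 0.43), Zfp949 (3.13, SE 0.71), Tmem150a (4.33, SE 1.04), Mbd6 (2.10, SE 0.54, and 1.34 without letter b), Fam189a1 (2.14, SE 0.56) and Dpep3 (1.89, SE 0.50) complete the 12. Of these 12 genes, 10 had an NLS difference within 1 log2 unit, and Blm and Fam189a1 (2.68) were the others.

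Psmc2 and Tpp2 were among the 12 on the lower side. Psmc2, an ATPase of the proteasome's regulatory particle, had 4.69, 3.54 and 2.88 at 0GH and 0.04, -5.21 and -0.06 at 1GH, a difference of -5.44 (SE 1.10). The lowest value was on WT 1GH c, but letters b and d also had wide differences (-4.64 and -2.94). Psmd7, a lid subunit of the same particle that is not among the 12, went from 1.27, 0.51 and -1.09 to -5.12, -3.74 and -2.30, by -3.95 (SE 1.02). Tpp2, the peptidase that acts after the proteasome, went from 1.43, 1.65 and 2.89 to -0.48, -1.68 and 0.72, by -2.47 (SE 0.57). In these 3 genes no 1GH array reached any 0GH array. With the NLS receptor the differences were 2.26, 0.57 and 0.99, and the tests between receptors had limma adjusted p-values of 0.950 each.

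The other proteasome subunit genes did not share these differences. Of 30 subunit genes tested, Psmc2 and Psmd7 included, 15 lay above 0 and 15 below. Their median was 0, and without centring 5 lay above 0 and 25 below. Psmd10, an assembly chaperone, had 1.10, 0.50 and 1.14, and Psmc6, another ATPase, had -1.16, 0.05 and -1.51. Psmc3, Psmd1, Psmd12 and Psmd13 had fitted values between -0.01 and 0.17, with SE of 0.27 to 0.33. Members of this complex thus ran from -5.44 to 0.91 within the same arrays.

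Further genes of the lower 12 serve cytokine signalling, the cytoskeleton and gene regulation. Il27ra, a cytokine receptor subunit gene, had 5.06, 0.16 and 4.37 at 0GH and -0.11, -2.84 and 1.14 at 1GH, a difference of -3.80 (SE 0.67), with -1.94 in the NLS arrays. Each letter was lower at 1GH, and the groups overlap through letters c and d. Sh2d2a, a lymphocyte adaptor gene, went from 2.40, 1.20 and 1.06 to 0.29, -0.24 and -0.65, by -1.75 (SE 0.41). Cacul1, a cullin-domain regulator of cell cycle kinases, had the largest size of all 24, -7.67 (SE 1.55), with -11.43, -7.51 and -4.08 by letter and -2.88 in the NLS arrays. Ank3, the gene of ankyrin G, had -2.81 (SE 0.60), and Ktn1, the gene of the membrane protein kinectin, -4.18 (SE 0.91). U2af1, a subunit of the factor that marks 3' splice sites, had -1.83 (SE 0.44), and Cbx6, a Polycomb gene, -1.69 (SE 0.42), although its 2 spots did not keep a common sign in all letters. Pdzd3 and 1600014C23Rik had -2.09 and -3.65, and Zcchc4 had -4.58, with -4.92, -6.10 and -2.74 by letter.

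**Figure D3:**
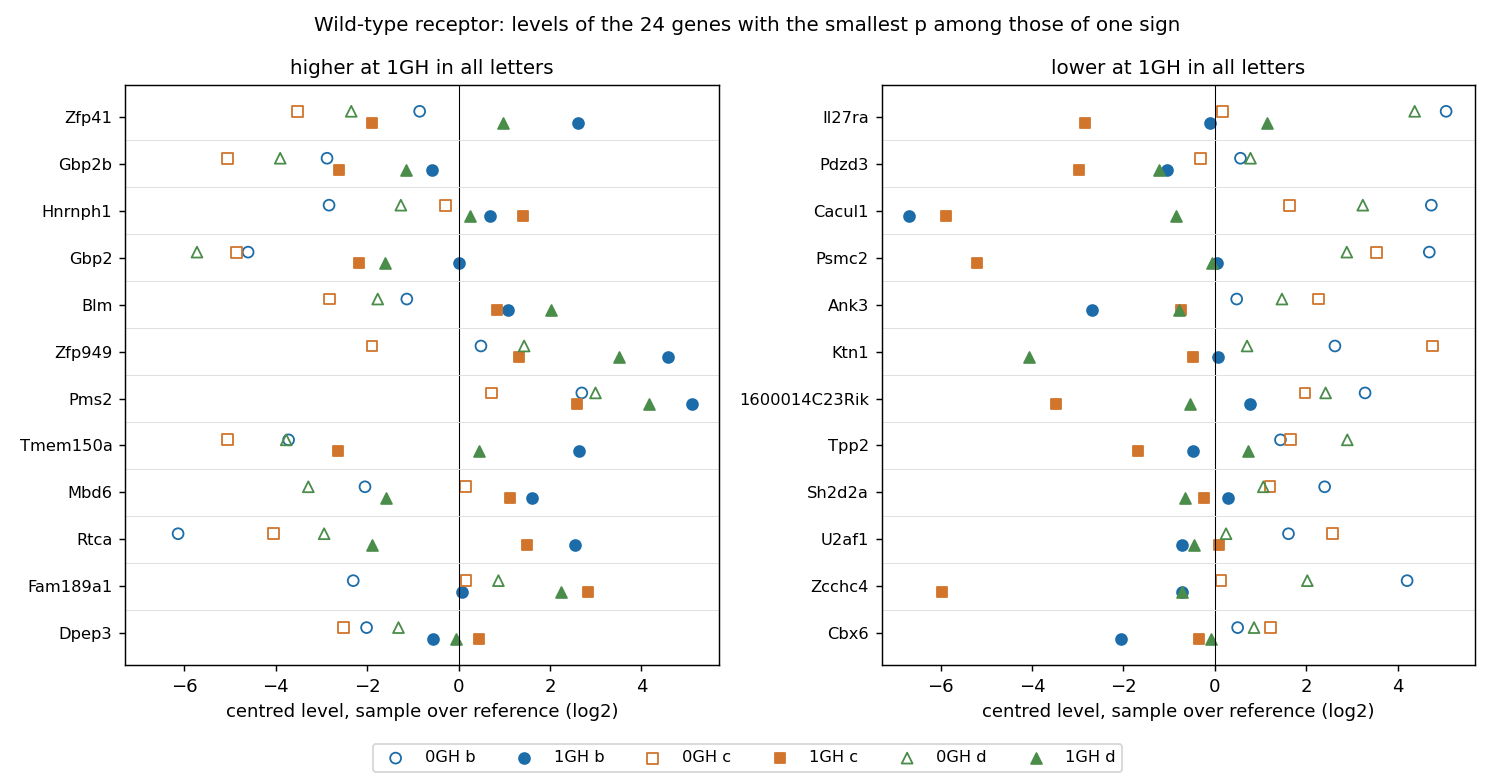
Centred levels (log2, sample over reference) of the 24 genes with the smallest unadjusted p among named genes of one sign in all letters, 12 higher and 12 lower at 1GH; open symbols are WT 0GH and filled symbols WT 1GH, with colour and shape for the letter. Open and filled symbols separate without overlap in 7 of the 12 higher and 11 of the 12 lower genes, beside 2.95% and 2.7% of all features. The choice by p on these same arrays favours such a separation. Among these 24, the 5.09 of Rtca and the -7.67 of Cacul1 are the widest fitted differences on the higher and the lower side.

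Genes with several spots show how far spots of a gene agree within an array. Of 367 such genes, 10 (2.72%) had every spot of the same sign in all letters, and 8 are given here by size. Over all features the averaged value had one sign in all letters in 23.8%. The 8 were chosen because their spots agree in sign, so that agreement does not support them. Hyi, a hydroxypyruvate isomerase gene, had -3.74 (SE 0.99) as a mean, but its spots differed in size, with -0.25, -1.21 and -2.34 for one and -10.35, -5.61 and -2.69 for the other. Dab2, an endocytic adaptor gene, had -2.83 (SE 1.16), with spots at -6.14, -1.54 and -2.62 and at -0.82, -3.21 and -2.68. The spots of Hyi and Dab2 thus have a common direction and no common size. Rnf216 (0.93), Amotl1 (0.69), Hgd (0.59), Ramp1 (0.55), H2-Q2 (0.50) and Plxna2 (0.46) were on the higher side. H2-Q2 was 0.15 without letter c, where 1 of its spots had 2.61, and Plxna2 was 0.24 without d. H2-Q2 belongs to the class I histocompatibility genes, whose near-identical copies share probes.

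Cytosolic ribosomal protein genes, which encode the subunits of the translating ribosome, lay mostly above 0 with the wild-type receptor. Of 61 tested, 53 were above 0 and 8 below, and 18 were higher in all letters (29.5%, beside 13.8% of all features) against 2 lower (3.28%, beside 9.93%). The letters were uneven: 28, 42 and 52 of the 61 lay above 0 in b, c and d, and the medians were -0.04, 0.21 and 0.64. The fitted median was 0.31, while without letter d it was 0.09 with 40 above 0, and without centring 0.05 with 36 above 0. No member passed, and 1 had an unadjusted p under 0.05. That gene, Rps24, went from -0.65, 0.92 and -0.40 to 0.54, 1.63 and 0.43, by 0.91 (SE 0.34). Rps19 and Rps2 had the largest fitted values, 3.35 and 2.50, each set by 1 array, at 9.999 (WT 1GH c) and 8.43 (WT 1GH b). By letter Rps19 had -0.21, 9.57 and 0.68, and Rps2 had 9.61, 0.93 and -3.03. Rps23 was the only member whose 1GH arrays all lay above its 0GH arrays (1.33, SE 0.97). Rpl22 was the lowest at -1.77, which rests on 4.69 on WT 0GH b and was -0.42 without that letter.

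With the NLS receptor most of the same genes lay on the other side in the fitted values. There 55 of the 61 were below 0, with a fitted median of -0.32, beside -0.04 over all features. The letter medians (b, c, d) were 0.08, -0.32 and -0.62, beside 0.09, -0.04 and -0.08 over all features. Of the 61, 35, 9 and 4 lay above 0 in these letters, where 53.6%, 47.0% and 47.2% of all features did. For NLS these counts were not taken without centring or without a letter, settings that brought the wild-type values nearer to those of all features. The receptor forms share no arrays, and the arrays of a letter are listed with the same red dye incorporation in both. For single members the test of the difference between receptors found 0 with an unadjusted p under 0.05 and 0 adjusted. Over all features that test in limma called 0 of 10760 (0%), with 399 at an unadjusted p under 0.05. The Gapdh control spots also differed by letter: the 1GH minus 0GH difference of their centred medians (letters b, c, d) was -0.26, -0.37 and 0.59 with WT and -0.81, -0.17 and -0.81 with NLS. The Gapdh difference and the ribosomal median had the same sign in 4 of these 6 pairs of arrays, and opposite signs in WT c and NLS b. Beyond the wild-type values without centring, the part of array scaling in these medians was not tested.

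**Figure D4:**
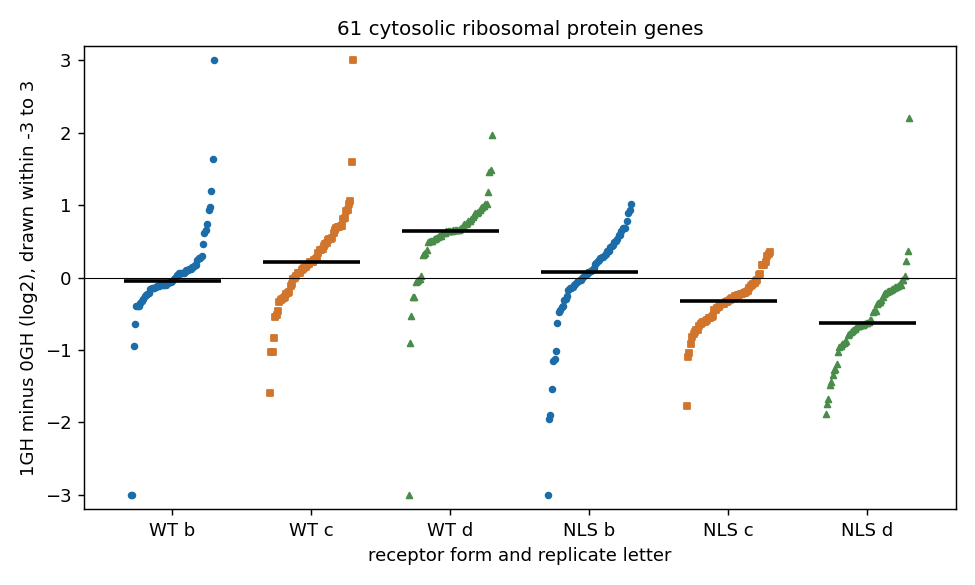
Differences 1GH minus 0GH (log2) of the 61 tested cytosolic ribosomal protein genes by receptor form (WT or NLS) and replicate letter, sorted within each column, with a bar at the median; 6 values beyond 3 in size are drawn at the edge. The medians step from -0.04 to 0.64 over the columns WT b, c and d and from 0.08 to -0.62 over NLS b, c and d.

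Genes of the respiratory chain and ATP synthase, in mitochondria, had a median difference of 0.07, beside 0.03 over all features. Of 60 tested, 39 lay above 0 and 21 below, and 15 were higher in all letters (25%, beside 13.8% of all features) against 6 lower (10%, beside 9.93%). Without centring 16 of the 60 lay above 0, and with quantile normalization 28. Uqcrh, a hinge subunit of complex III, had -1.55, -2.93 and -2.69 at 0GH and -3.16, -5.65 and -3.45 at 1GH, lower without overlap (-1.70, SE 0.58). Atp5o, a stalk subunit of ATP synthase, was lower without overlap too (-0.95, SE 0.49). Cox5a, a subunit of complex IV, and Atp5j, a coupling factor of ATP synthase, were higher in all letters (2.01 and 1.22), with overlap.

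Cell cycle genes gave no common direction. Of 37 DNA replication and repair genes 15 lay above 0 and 22 below, and of 33 mitosis and kinetochore genes 21 above and 12 below, or 11 and 22 without centring. Cenpu, a centromere protein gene, had 6.204, 3.14 and 2.39 at 0GH and 8.49, 5.34 and 4.84 at 1GH. Its difference was alike in the letters (2.29, 2.20 and 2.46; fitted 2.31, SE 0.90), while its level was not, so the groups overlap. Cdc45, a subunit of the replicative helicase, had 3.94, 4.49 and -0.28. Cdkn2c, an inhibitor of the cyclin D kinases, had -1.32, -0.87 and 0.28. Casp6, an executioner caspase gene, had 3.46, -0.15 and 1.81, and Birc2, an inhibitor of apoptosis, was lower in all letters (-2.82, -1.40 and -1.75; fitted -1.99, SE 0.97).

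Folding, transport and translation genes held a few wide differences among medians near 0. Of 32 heat shock and folding genes 12 lay above 0 and 20 below, with a median of -0.11. Pdia3, a disulfide isomerase of the endoplasmic reticulum, went from 2.39, 3.66 and 1.71 to -1.43, 1.59 and 0.14 without overlap (-2.48, SE 0.99), and Dnajb11, a co-chaperone of the same compartment, from 3.71, 0.33 and 1.43 to 0.08, -0.03 and 0.06 (-1.79, SE 0.74). Eif3h, a subunit of a translation initiation factor, had 3.41, 1.18 and 0.23 at 0GH and -1.97, -3.98 and -0.66 at 1GH (-3.81, SE 1.14). In Pdia3, Dnajb11 and Eif3h all 1GH arrays lay below all 0GH arrays. Nup62, a central pore protein, was higher (8.67, 2.06 and 0.52; fitted 3.75, SE 1.40), and Ranbp2, a protein of the pore's cytoplasmic filaments, lower in all letters (-1.61, SE 0.59). Ncl, the nucleolin gene, was lower without overlap (-1.04, SE 0.52), and Mrto4, a ribosome assembly gene, lower in all letters (-1.57, SE 0.56). Msn, the moesin gene of the actin cortex, went from 6.07, 2.93 and 1.95 to 1.88, 2.02 and 0.53 (-2.17, SE 0.74), with overlap. Several of these values lean on letter b: without it Dnajb11 was -0.87, Nup62 1.29, Ranbp2 -1.06, Ncl -0.64, Mrto4 -0.86 and Msn -1.16.

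**Figure D5:**
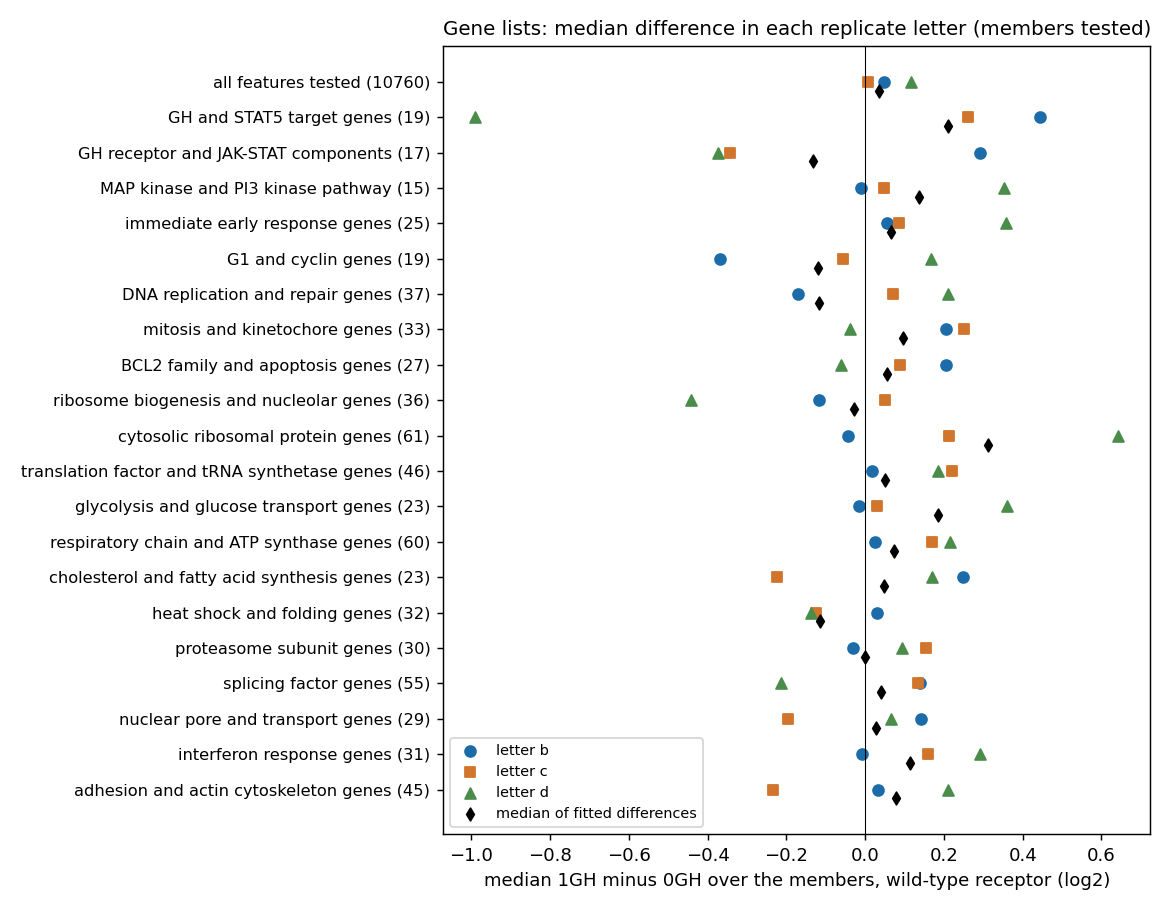
Median 1GH minus 0GH difference (log2) over the tested members of each pathway list, by replicate letter, with the median of the fitted differences in black and the number of members in brackets. The GH and STAT5 targets span from -0.99 in d to 0.44 in b, and ribosomal protein genes have the highest fitted median, 0.31, against 0.03 over all features.

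Markers of blood cell types were checked because the labels name no cell type. The 11 myeloid markers tested had array medians between -1.25 and -0.62, with 2 to 4 above the median of the array, and the 8 mast cell and basophil markers between -0.92 and 0.10, with 3 to 5 above it. The 14 B lymphoid markers had array medians between -0.34 and 1.16, with 5 to 11 above, and the 8 erythroid and megakaryocyte markers between 0.43 and 1.21, with 4 to 6 above. The 7 T lymphoid markers had array medians between -0.03 and 0.40, with 3 to 6 above. The 9 hepatocyte markers had array medians between -5.59 and -4.19. Alb, Afp, Apoa1 and Ttr stand in both this list and that of the embryo genes, which set the sign. In bulk samples fewer cells of a type and less RNA per cell cannot be told apart. Of the B lymphoid markers 5 differences lay above 0 and 9 below, with a fitted median of -0.50 and letter medians (b, c, d) of -1.34, -0.46 and 0.32. Their summed level, in log2 of summed ratios, was lower at 1GH in every letter, with 5.92, 4.27 and 5.18 at 1GH against 6.98, 5.39 and 5.41 at 0GH, although the groups overlap. Btk, a kinase of B cell receptor signalling, went from 4.502, 3.997 and 3.72 to 0.84, 1.39 and 2.69 without overlap (-2.43, SE 0.90), and Dntt, the polymerase of antigen receptor rearrangement, from 3.97, 3.01 and 2.24 to 2.20, 1.76 and 1.34 (-1.31, SE 0.44). The NLS differences of Btk and Dntt were -2.89 and -0.92, while 9 of the 14 B lymphoid markers lay above 0 with NLS, with a median of 0.28. Pax5, a B lineage factor, had -2.27, 0.30 and -4.38. The summed levels of the myeloid (3.63 to 5.56 against 3.59 to 4.86), mast cell (3.45 to 4.61 against 3.64 to 4.32) and erythroid and megakaryocyte markers (4.46 to 4.96 against 4.25 to 6.51) overlapped between 1GH and 0GH, and in none of these 3 lists did all letters have the same sign. The part of cell makeup in the differences above was not tested.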

How the data were processed

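Two-colour spotted arrays of 12 mouse RNA samples were used through the deposited series matrix values, which are read here as log2 ratios; their base and direction are unstated. Per the series' design text, the authors adjusted the control value with a Lowess fit over 50% of the data and raised control values below 200 to 200. No image software or background method is named by the labels.

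The sign of all deposited log2 values was turned, 906 control spots were left out, each array was centred on the median of the tested features, and spots were averaged per gene symbol of the platform annotation. Of 22134 gene spots 16955 have 1 symbol, 142 several and the others none in the table given; 16249 matched RefSeq by Entrez identifier, and 0 symbols were updated. Spots with several symbols or none stayed unnamed. Features with a value on all 12 arrays (10760) were fitted with limma 3.58.1 (lmFit, eBayes) in R 4.3.3, with group and replicate letter as terms, two-sided, Benjamini-Hochberg adjusted over all features, at a threshold of 0.05. The fit was tested on simulated data. It had 6 residual degrees of freedom and a prior of 1.88.

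The letter is a block because the samples of a letter share the red dye incorporation (19.3, 19.8 and 17.9 bp per dye molecule in b, c and d, per the labels). The check took pairs of arrays from different groups, after removing group means. Those of the same letter correlated at 0.04 to 0.26, and those of different letters at -0.19 to 0.07. Since removing group means ties the arrays of a group together, these ranges are not independent. For WT 0GH and 1GH of the same letter the range was 0.13 to 0.20. No pair of arrays held identical values.

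The rule for naming took genes that pass and have 1 sign over the letters, filled up to 12 a direction by the smallest p among genes of 1 sign; GH pathway genes; up to 8 genes whose spots all have one sign; and the 2 members of each pathway list with the smallest p. Other list members were named after their values were seen. The comparison, the lists and these rules were chosen with earlier results of these data known.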

Additional observations from a re-analysis of the deposited data

How the results depend on the processing

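Under each of 13 alternative fits limma called 0 features for 1GH against 0GH, with a lowest adjusted p from 0.316 (sample dye as a covariate) to 0.9999 and 289 to 590 features at an unadjusted p under 0.05. The count was 289 with no replicate block, against 401 with the letter as a paired block, and 392 with the block as a random effect. For the difference between receptors 0 features passed in each of the 12 alternatives that could be fitted; the fit of the wild-type arrays alone has no such term.

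Of 974 values of 75 named genes under these alternatives, 968 kept their direction. Part of these could not turn, since a change of only the block or the prior leaves the fitted value as it was. Genes of one sign in all letters also cannot turn when a letter is left out. Leaving out a letter moved 35 of the 75 values by over 1.5 times. Bcl2l1 turned to 0.034 with quantile normalization, where the main value was -0.03. Leaving out a letter gave -0.69 to 0.19 for Ghr (0.19 without d), -0.48 to 1.87 for Cish (-0.48 without c), -0.39 to 0.46 for Bcl2l1 (0.46 without d), -0.36 to 0.080 for Birc5 (0.080 without d) and -0.46 to 0.26 for Fxyd5 (0.26 without c). For Bcl2l1, the cause was not tested.

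The number of features beyond 1 log2 unit in the same direction in all letters, 222, became 640 at a limit of 0.5 and 758 to 1044 when only 2 letters had to meet it. Without centring, an alternative chosen after seeing the data, 16 of 60 respiratory chain genes lay above 0 in place of 39, since every difference then shifts by -0.27. With at least 2 values a group 15113 features could be fitted, against 10760; why spots lack values was not tested.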

Other observations

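Some spots had values at 1 GH number only and stayed out of the fit. Of 22134 gene spots, 14 (0.0633%) had a value on all 3 WT 1GH arrays and on none of the 0GH arrays, and 16 (0.0723%) the reverse. Ddx25, an RNA helicase gene of germ cells, had -2.44, -5.39 and -4.21 on the 1GH arrays b, c and d and a value on 1 of the 6 NLS arrays. F5, the coagulation factor V gene, had -0.95, 1.79 and 5.04 at 1GH. Among spots with values at 0GH only, Tert, the catalytic subunit of telomerase, had -0.65, -6.26 and -3.83, and Taf1, a subunit of the general transcription factor TFIID, had -3.52, -3.87 and -2.42. These genes were chosen after their values were seen, and the number of such spots is close to equal in both directions.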
